A study of Mus musculus with 40 samples.

Results

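The genes described here are 10 brakes, or relatives of brakes, of the ERK pathway in mouse embryonic stem (ES) cells: the dual-specificity phosphatases Dusp1, Dusp4, Dusp6, Dusp12 and Dusp27, the Sprouty genes Spry1, Spry2 and Spry4, and the Spred genes Spred1 and Spred2. They were taken by symbol, current or older, from all gene probes of 3 array experiments, and are 10 of 14115 genes named on these arrays. They had 33 probes in all, 13 on the early arrays, 8 on the late arrays and 12 on the Nanog arrays. The late arrays held no probe for Spry1 and Spred1 and measured 8 of the 10 genes.

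Growth factor receptors switch on RAS, which passes the signal through RAF and MEK to the kinases ERK1 and ERK2. Active ERK raises the transcription of genes that then hold it back: Dusp proteins take the phosphate off MAP kinases, and Sprouty and Spred proteins act upstream, between the receptor, RAS and RAF. In ES cells the main input is FGF4 made by the cells themselves, ERK favours the exit from pluripotency, and LIF sustains self-renewal through STAT3. Dusp6 removes phosphate from ERK in the cytoplasm, while Dusp1 and Dusp4 are nuclear MAP kinase phosphatases. Dusp12 and Dusp27 are atypical Dusp proteins without the docking domain that binds MAP kinases, and neither has an established part in ERK feedback.

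ZHBTc4 ES cells (strain 129/Ola) carry a Pou5f1 transgene that tetracycline (Tet) shuts off and have no other source of POU5F1, so all groups of both time courses, 0 hr included, depend on the transgene, in 1 cell line. The early arrays, 2 for each time, cover the first day of Tet (0, 3, 6 and 12 hr, then 24 hr). The late arrays, 3 for each time, cover days after it, with 0 and 24 hr, then 48 and 72 hr, then 96 and 120 hr. In the Nanog experiment, 1 clone with an integrated Nanog transgene (Nanog/EF1#6, strain 129SvEv-Tac) and 1 clone with an episomal one (strain 129Sv) were set beside parental cells of the same strain, ES 129.3 at passage 12 and MG1.19 at passage 5. MG1.19 cells express polyoma large T, on which the episomal vector depends. For each of these 4 lines there is 1 array with LIF, 1 lacking LIF and 1 with LIF plus 1 µM retinoic acid (RA), 12 arrays in all. All values are log2 ratios of the sample (Cy3) to a common reference RNA pooled from mouse cell lines (Cy5), and a change is the difference between mean log2 ratios. A change was called where it passed an adjusted p of 0.05 in limma and was at least 1.5-fold, and the verbs rose and fell are kept for such changes. Nothing in the labels says that arrays of a group came from separate cultures, so the p-values measure the spread between arrays, which may be technical. In whole cultures, fewer cells of a type and less RNA per cell cannot be told apart.

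The Pou5f1 probe of the late arrays fell by 2.18 at 24 hr and its change was between -2.18 and -2.07 at all later times. An identical early probe gave -1.83 by 3 hr and -2.79 by 24 hr. The other early Pou5f1 probe changed by -0.55 at 24 hr, and the identical probe read 2.92 and 1.52 on the 2 arrays at 0 hr. Nanog fell later, by 0.68 at 48 hr and 2.79 at 120 hr. Socs3, a target of LIF signalling, changed by -2.93 to -2.05 in the lines when LIF was withdrawn, and Cyp26a1, which RA induces, by 2.14 to 3.03 with RA. The Nanog probe itself differed from the parental line by 0.75 in the integrated clone (adjusted p = 0.0702) and by -0.57 in the episomal clone (adjusted p = 0.434), so neither clone passed the test for Nanog on these arrays and the episomal one had the lower ratio. The study's methods describe a real time PCR check of Nanog in both clones, which was not analysed here. Between 16.3 and 30.2% of late gene probes were dimmer than 95% of the negative control spots, against 0.414 to 6.78% on the early and 1.78 to 5.07% on the Nanog arrays. Of the members' spots, only 1 of 144 on the late arrays did so (Spry4, 48 hr, replicate 2), and none on the others.

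Every array value rests on one 60-base probe per gene, or on the brightest where there were several. The starts of these probes are printed for the genes on which the results turn, since Dusp1, Dusp6 and Dusp4 had a second probe that reads another stretch of the transcript and did not always move with the brightest. The first 30 of 60 bases are given in lower case, as deposited with the array designs, and each brightest probe shown starts with the same bases on all designs that carry the gene.
Dusp6, brightest: ctgccttacctttgtaaatatttggcttac
Dusp6, second (early and Nanog arrays): atggcagcccgctgtccaacagccagcctt
Dusp1, brightest: tgagttccactgagttcctaagcagtcaca
Dusp1, second (early and Nanog arrays): atcgaccgactttttctggagaaccgcaga
Dusp4, brightest: tggtttctgtgaggcctctgagaaccagtt
Dusp4, second (early arrays): gctccgtctccatttctccttggccaacca
Dusp27, its one probe: gagaagagacaagagccattcatgcgagcc

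The promoters of Dusp6 and Spred2, which fell side by side on the late arrays, and of Dusp1, which moved the other way, are shown from RefSeq on build GRCm38.p6. Each is the 250 bases before the transcript start, written along the gene's strand, with capitals for a motif that was found. Promoters of 8 of the 10 genes were searched: Dusp4 had no RefSeq promoter entry, and Spry4 was left out of the search.
Dusp6, chr10:99262981-99263230, plus strand: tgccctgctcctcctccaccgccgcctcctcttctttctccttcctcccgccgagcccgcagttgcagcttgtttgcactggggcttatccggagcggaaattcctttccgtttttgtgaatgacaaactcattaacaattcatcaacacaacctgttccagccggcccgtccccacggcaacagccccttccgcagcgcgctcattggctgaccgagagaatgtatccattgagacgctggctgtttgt
Spred2, chr11:19924192-19924441, plus strand: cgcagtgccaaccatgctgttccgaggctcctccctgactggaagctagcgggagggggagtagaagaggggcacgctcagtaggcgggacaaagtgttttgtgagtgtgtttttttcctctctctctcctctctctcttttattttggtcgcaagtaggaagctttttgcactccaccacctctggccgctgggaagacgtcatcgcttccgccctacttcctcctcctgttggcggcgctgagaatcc
Dusp1, chr17:26508473-26508722, minus strand: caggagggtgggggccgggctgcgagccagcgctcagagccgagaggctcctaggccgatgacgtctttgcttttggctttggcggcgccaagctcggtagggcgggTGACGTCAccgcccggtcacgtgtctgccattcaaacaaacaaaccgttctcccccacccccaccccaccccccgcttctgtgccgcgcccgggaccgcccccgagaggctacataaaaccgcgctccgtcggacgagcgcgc
The letters searched on both strands were the octamer ATGCAAAT, which POU factors bind, the CREB element TGACGTCA, the ETS motif CCGGAAGT and the STAT motif, TTCC and GAA with 3 bases between. The Dusp1 promoter held TGACGTCA once, 143 bases before the start, and 1.55% of 32851 mouse promoters of this length held it. The Dusp12 promoter held a STAT motif 10 bases before the start, which 3.27% of promoters had. None of the 8 held the octamer (1.6% of promoters) or the ETS motif (2.88%). These matches describe the letters only.

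During the late time course most of these genes fell, but not all at once. Dusp27 and Dusp4 fell by 24 hr, Dusp6, Spred2 and Spry4 fell between 24 and 48 hr, Dusp12 followed by 72 hr, and Dusp1 rose at 96 and 120 hr. Spry2 was not called at any time from the log2 ratios.

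At 24 hr, 2 of the 8 genes measured fell (Dusp27 and Dusp4) and none rose, where 11.0% of all named genes were called, 4.88% falling and 6.07% rising. The median change of the 8 genes was -0.10, against 0.01 for all genes. At 48 hr, 5 of the 8 fell, where 15.0% of all genes were called, 7.12% falling and 7.84% rising, and the median of the 8 was -0.76. At 72 hr 6 genes fell, against a background of 20.8% called and 9.37% falling. At 96 hr 5 fell and 1 rose, where 25.5% of all genes were called, 10.5% falling and 14.9% rising. The same split of 5 and 1 was seen at 120 hr, with a background of 29.3% called, 12.5% falling and 16.8% rising, and the median change of the 8 genes had reached -0.96 against 0.00 for all genes. All 5 comparisons share the arrays at 0 hr. Since the genes were chosen with results of these arrays known, these shares are descriptions.

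**Figure D1:**
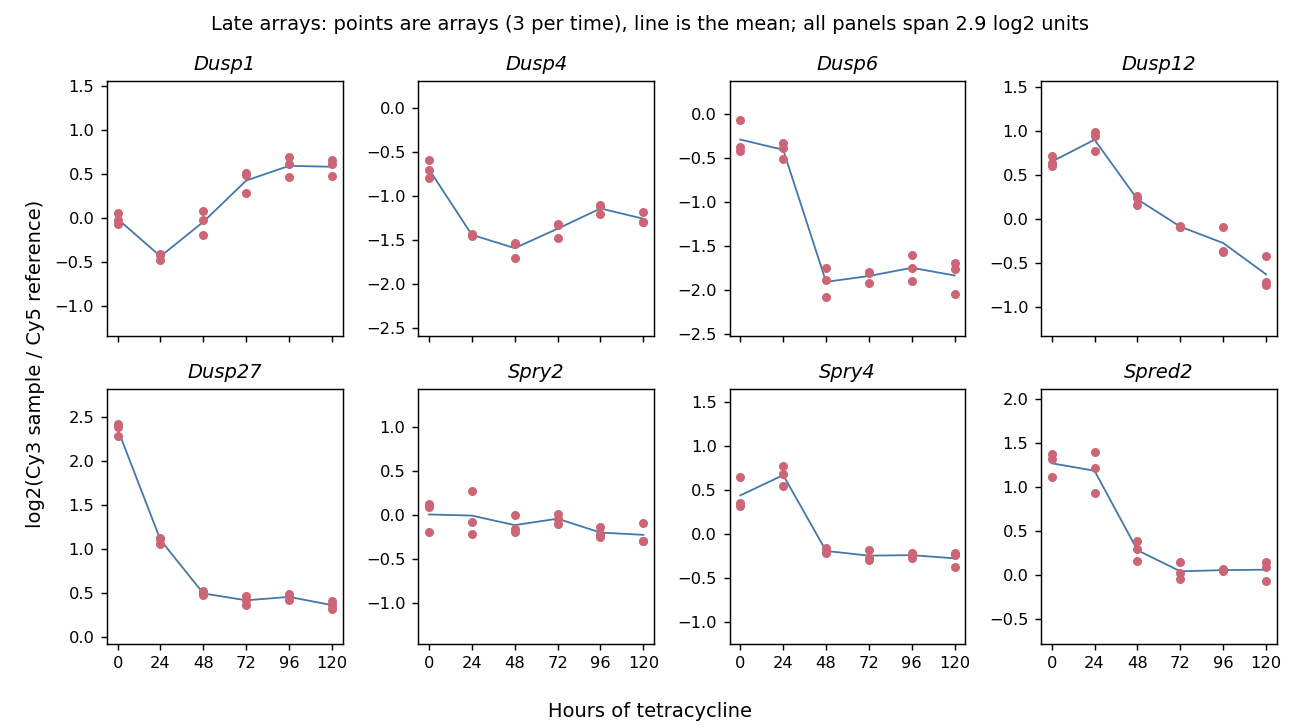
Log2 ratio of sample to reference (vertical axis) against hours of tetracycline (horizontal axis) for the 8 genes on the late arrays. Points are arrays, 3 per time, and lines join their means. Dusp27 drops between 0 and 24 hr, while Dusp6, Spred2 and Spry4 lie near or above their 0 hr ratios at 24 hr and lower from 48 hr on.

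Dusp27 had the largest change of the 8 genes. Its log2 ratios stood at 2.38, 2.29 and 2.43 at 0 hr, 1.13, 1.12 and 1.06 at 24 hr, 0.53, 0.49 and 0.48 at 48 hr, then 0.41, 0.32 and 0.36 at 120 hr. The 6 arrays of 72 and 96 hr read 0.37 to 0.49. The arrays of each of the later times lay far below those of 0 hr, and most of the loss was complete by 48 hr. The change was -1.26 at 24 hr, a fold of 2.40, and -2.00 at 120 hr, a fold of 4.00, each with an SE of 0.05 and an adjusted p of 2.37e-15 at 120 hr. In the separate channels, as scanned and centred on each array's median, the log2 signal of the sample changed by -1.37 at 120 hr and that of the reference by -0.23. Over the 18 late arrays the genes most like it were Nr0b1, a Pou5f1-associated repressor of ES cells (Pearson r = 0.995), Jam2 (0.994) and Lrrc2 (0.994), of 10483 genes compared. These arrays share a time course, so any gene that fell early and stayed low scores high.

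Dusp6, the cytoplasmic ERK phosphatase, showed the sharpest step. Its ratios stood at -0.07, -0.38 and -0.42 at 0 hr, -0.32, -0.51 and -0.38 at 24 hr, then -2.08, -1.75 and -1.89 at 48 hr. The 9 arrays of 72, 96 and 120 hr read -2.05 to -1.60. The groups at 0 and 24 hr overlapped, and every array from 48 hr on lay more than 1 log2 unit lower. At 24 hr the change was -0.12 with a 95% interval from -0.35 to 0.12, and at 48 hr it was -1.62 ± 0.11 (SE, n = 3), a fold of 3.07 with an adjusted p of 6.40e-09. It then stayed between -1.55 and -1.46. The genes most like Dusp6 were Plekhg5 (r = 0.973), Ak1 (0.966) and Arhgap45 (0.965).

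Spred2, which restrains the step from RAS to RAF, followed the same course at a smaller size. It read 1.37, 1.11 and 1.32 at 0 hr, 1.40, 1.21 and 0.93 at 24 hr, 0.39, 0.29 and 0.16 at 48 hr, then -0.07, 0.15 and 0.09 at 120 hr. The 6 arrays of 72 and 96 hr read -0.04 to 0.14. No array from 48 hr on reached the range of 0 or 24 hr. The change was -0.08 at 24 hr (interval -0.30 to 0.13), -0.99 at 48 hr and -1.21 at 120 hr (SE 0.10, fold 2.31, adjusted p = 2.47e-08). Tmem64 (r = 0.992), Plekha4 (0.986) and Btbd2 (0.982) were the most similar genes.

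Spry4, a Sprouty gene that ERK signalling induces, was slightly higher at 24 hr and then lower. The arrays read 0.35, 0.32 and 0.64 at 0 hr, 0.68, 0.78 and 0.54 at 24 hr, -0.16, -0.22 and -0.20 at 48 hr, then -0.37, -0.24 and -0.22 at 120 hr. Those of 72 and 96 hr read -0.29 to -0.18. At 24 hr the difference of 0.23 passed the test (adjusted p = 0.0343) but not the fold, and the groups overlapped. From 48 to 120 hr the changes were -0.63 to -0.72, folds of 1.55 to 1.64, and no array overlapped with 0 hr. Its Cy3 signals, with a median of 571 on the late arrays, lay near the 95th percentile of the negative controls, with a median of 529, and without background correction the change was -0.22 at 48 hr and -0.24 at 120 hr, under 1.5-fold. Without replicate 3 of 0 hr the changes at 48, 72 and 96 hr were -0.53, -0.58 and -0.58, also under 1.5-fold. The most similar genes were Abhd12 (r = 0.983), Etv4 (0.978), an ETS factor that is itself an ERK target, and Tpd52 (0.969).

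Dusp6, Spred2 and Spry4 ran closely together over the 18 late arrays, with Pearson r of 0.942 between Dusp6 and Spred2, 0.953 between Spred2 and Spry4 and 0.916 between Dusp6 and Spry4. Spry2, a Sprouty gene with the same role, correlated with Dusp6, Spred2 and Spry4 at 0.473, 0.366 and 0.334. High values were not particular to these 3 genes: Dusp12 correlated with Dusp6, Spred2 and Spry4 at 0.825, 0.857 and 0.870, and Dusp27 did so at 0.866, 0.861 and 0.744. The arrays share the time course and its reference, and the r values are descriptions.

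Dusp4 fell early and partly returned. It read -0.70, -0.80 and -0.59 at 0 hr, -1.44, -1.45 and -1.43 at 24 hr, -1.70, -1.53 and -1.54 at 48 hr, -1.21, -1.10 and -1.11 at 96 hr, then -1.29, -1.18 and -1.30 at 120 hr. The arrays of 72 hr read -1.47, -1.31 and -1.32. All arrays after 0 hr lay below all 3 arrays at 0 hr. The changes were -0.74, -0.90 and -0.68 at 24, 48 and 72 hr, with an SE of 0.07, and -0.45 and -0.56 at 96 and 120 hr, which passed the test (adjusted p = 2.38e-05 and 1.38e-06) but were under 1.5-fold. Itga9, an integrin subunit, was the gene most like it (r = 0.972).

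Dusp12 fell without a plateau. Its ratios stood at 0.64, 0.60 and 0.71 at 0 hr, 0.78, 0.99 and 0.94 at 24 hr, -0.08, -0.09 and -0.09 at 72 hr, then -0.42, -0.75 and -0.71 at 120 hr. Between these times the arrays read 0.16 to 0.26 (48 hr) and -0.37 to -0.09 (96 hr). The 24 hr arrays all lay above the 0 hr arrays, by 0.25 on average (adjusted p = 0.0381, under 1.5-fold), and all later arrays lay below. From 48 to 120 hr the 4 changes were -0.43, -0.74, -0.92 and -1.28, the last a fold of 2.43 with an SE of 0.09. Its reference signal was 0.39 higher at 24, 48 and 120 hr than at 0 hr, and the losses were smaller in the authors' deposited value table, all under 1.5-fold: the 72 hr change there was -0.23 (adjusted p = 0.103), that of 96 hr was -0.30 and that of 120 hr -0.58. From Cy3 alone the change at 72 hr was -0.43, and that call was lost too.

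Dusp1, an immediate-early phosphatase that also acts on JNK and p38, went the other way. The arrays read -0.06, -0.02 and 0.06 at 0 hr, -0.41, -0.41 and -0.48 at 24 hr, -0.19, -0.01 and 0.09 at 48 hr, 0.47, 0.62 and 0.69 at 96 hr, then 0.48, 0.66 and 0.61 at 120 hr. The arrays of 72 hr read 0.29, 0.51 and 0.49. The 24 hr arrays lay below and the arrays from 72 hr on above all 0 hr arrays. The change of -0.42 at 24 hr passed the test but not the fold, and the rises of 0.60 and 0.59 at 96 and 120 hr (SE 0.08) were folds of 1.52 and 1.51. Being so near the threshold, the call at 120 hr was lost in 7 of 29 alternative settings, among them without replicate 1 of 0 hr and without replicate 2 or 3 of 120 hr, at values down to 0.44, and its direction was the same in all 29. Of the other members, Dusp12 ran most opposite to it (r = -0.916, 18 arrays), and Jag1, a Notch ligand, was the gene most like it (r = 0.976).

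Spry2 read 0.13, 0.09 and -0.19 at 0 hr, then -0.08, -0.29 and -0.29 at 120 hr, with overlapping arrays, and its changes ran from -0.01 at 24 hr to -0.23 at 120 hr. At 120 hr the interval was -0.46 to -0.00 and the adjusted p 0.0929. From Cy3 alone Spry2 was called lower by limma at 96 hr (-0.66, adjusted p = 0.000105) and at 120 hr (-0.69, adjusted p = 6.29e-05).

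As marker genes changed strongly over the same hours, their values are set beside these results. The mean log2 ratio of 19 ES cell markers went from 2.84 to 3.00 on the arrays at 0 hr to 0.852 to 0.876 at 120 hr, and 16 of the 19 fell. Over the same time the mean of 14 trophoblast markers went from between -0.37 and -0.10 to between 2.13 and 2.23, with 10 rising. Of 14 primitive endoderm markers 5 rose and 1 fell, and of 9 fibroblast markers 2 rose. Among all genes 16.8% rose and 12.5% fell. The part of the markers in the members' changes was not tested.

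The early arrays follow the first day more closely. On them Dusp27 was the first to fall, at 12 hr, and at 24 hr Dusp27 and Dusp12 fell while Dusp4 and Spred2 rose. At 3 hr 0 of 10 genes and 0% of all genes were called by limma, with 1 member at an unadjusted p under 0.05. At 6 hr 0 of 10 were called, where 2.95% of all genes were and 2.71% rose, with 3 members (Spred1, Spry2 and Dusp27) at an unadjusted p under 0.05, all lower. At 12 hr 1 of 10 members fell (Dusp27), and 3 had an unadjusted p under 0.05, where 1.29% of all genes were called and 0.899% fell. At 24 hr 4 of 10 were called, where 13.4% of all genes were, 9.19% rising and 4.16% falling. A t test of each time against 0 hr with the variance floor of the study's methods called 0 members at 3, 6, 12 and 24 hr. It called 0% of all genes at these times. The floor is the larger of a probe's own variance and the average of 500 probes of similar intensity. This test used the log2 ratios of the early arrays alone and is not the study's own run. Cell type markers moved at 24 hr as well: 8 of 19 ES cell markers fell and 6 of 16 trophoblast markers rose. Of 14 endoderm markers 5 rose and 1 fell, and of 10 fibroblast markers 1 rose. How far these markers bear on the members' changes was not tested.

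**Figure D2:**
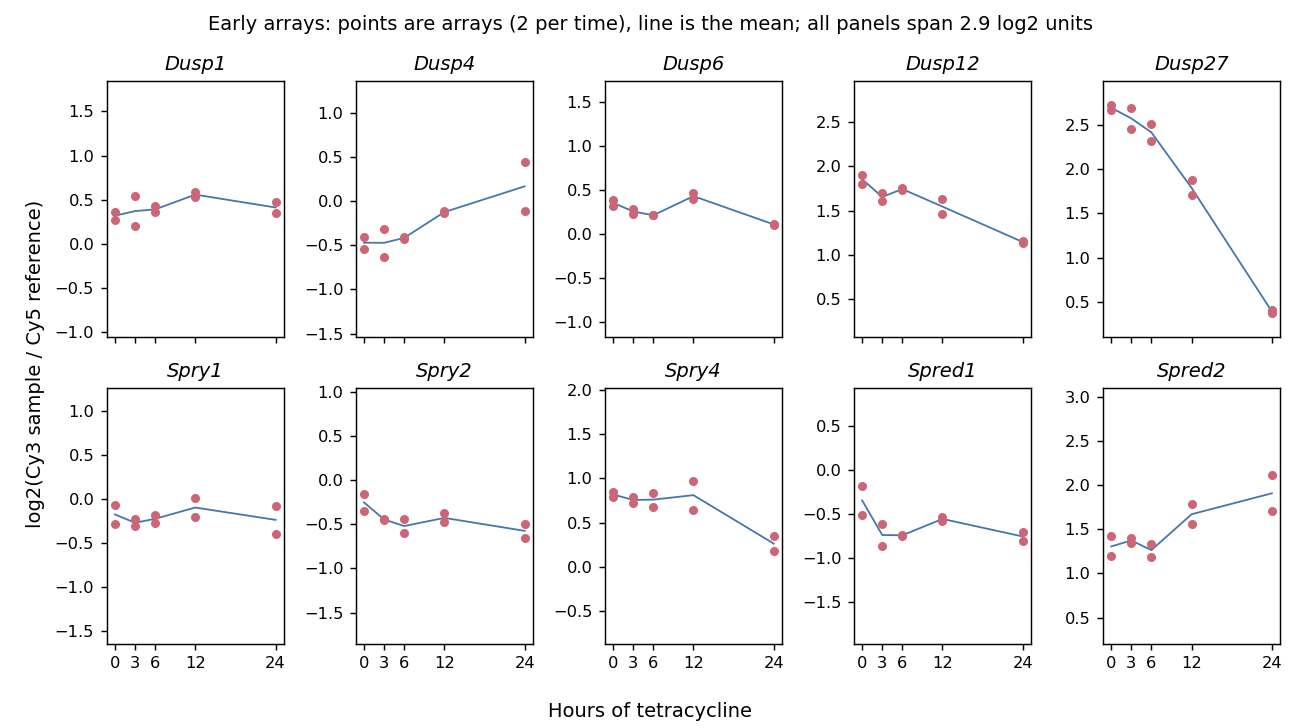
Log2 ratio of sample to reference (vertical axis) against hours of tetracycline (horizontal axis) for the 10 genes on the early arrays, with 2 arrays per time as points and their mean as a line. Dusp27 drops through 12 hr to 0.40 and 0.38 at 24 hr, and the other genes stay within about 1 log2 unit of 0 hr.

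The Dusp27 ratios were 2.67 and 2.72 before Tet. They were 2.70 and 2.45 after 3 hr, 2.51 and 2.33 after 6 hr, 1.88 and 1.70 after 12 hr, and 0.40 and 0.38 after 24 hr. From 6 hr on, both arrays of each time lay below both at 0 hr. Dusp27 changed by -0.28 in the first 6 hr (adjusted p = 0.227), by -0.91 in 12 hr (SE 0.11, adjusted p = 0.00977) and by -2.31 in 24 hr, a fold of 4.96 (adjusted p = 1.36e-05). The call at 12 hr was lost without either array of 0 hr (adjusted p = 0.0932 and 0.129) or without replicate 2 of 12 hr (0.114), with changes of -0.82 to -0.93.

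Dusp12 read 1.91 and 1.81 at 0 hr, 1.63 and 1.46 at 12 hr, then 1.13 and 1.16 at 24 hr. All 4 later times had both arrays under both at 0 hr, and the change at 24 hr was -0.71 (SE 0.09, fold 1.64, adjusted p = 0.00168). Spred2 read 1.419 and 1.192 at 0 hr, 1.556 and 1.785 at 12 hr, then 1.702 and 2.113 at 24 hr, so the 24 hr arrays were higher but differed by 0.41 from each other. Its rise was 0.60 (SE 0.15, fold 1.52, adjusted p = 0.0212). Dusp4 read -0.40 and -0.54 at 0 hr, then -0.11 and 0.45 at 24 hr, with a rise of 0.64 (SE 0.17, adjusted p = 0.0277).

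The channels behind the rises of Dusp4 and Spred2 differed. For Dusp4 the sample signal changed by 0.03 at 24 hr and the reference signal by -0.44, so the higher ratio went with a lower reference signal, and its second probe changed by 0.25 (adjusted p = 0.226). For Spred2 the sample signal changed by 0.16 and the reference signal by -0.17. Neither rise was called from Cy3 alone (0.01 for Dusp4 and 0.18 for Spred2), after the methods' correction for Cy5 bleaching, or without either 0 hr array or replicate 2 of 24 hr. Without that last array the changes were 0.36 for Dusp4 and 0.40 for Spred2.

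Other genes moved by less than 1.5-fold at 24 hr and passed the test or came near it. Spry4 read 0.79 and 0.85 at 0 hr, then 0.35 and 0.18 at 24 hr (-0.56, adjusted p = 0.0149). Spred1, which is not on the late arrays, read -0.18 and -0.51 at 0 hr, then -0.80 and -0.71 at 24 hr (-0.41, adjusted p = 0.0413), and it had already changed by -0.39 at 3 and 6 hr. Dusp6 read 0.38 and 0.32 at 0 hr, then 0.10 and 0.11 at 24 hr (-0.24, adjusted p = 0.0559), and its second probe changed by -0.22. Dusp1 changed by 0.09 on its brightest probe and by -0.39 on its second (adjusted p = 0.0176), so the 2 probes of Dusp1 did not run together. Spry2 changed by -0.32 (adjusted p = 0.053), with both channels higher at 24 hr, by 0.69 for the sample and 0.85 for the reference. Spry1 stayed near its 0 hr level, at -0.06 with an interval from -0.35 to 0.23.

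Because 24 hr of Tet was measured in both time courses and the probes of 8 members are identical on both designs, the change at 24 hr could be compared directly. In 1 fit over all 28 arrays, with 0 hr of each experiment as its own baseline, 5 of the 8 genes differed between the experiments. Of all genes with an identical probe 18.4% were called, 6.85% with a higher and 11.5% with a lower change on the late arrays. The direction of that split depended on the processing. By the log2 ratios 762 genes had a higher and 1282 a lower change. From Cy3 alone these numbers were 1138 and 824, and from the values of the authors they were 1633 and 221. Under the other processing alternatives lower changes outnumbered higher ones. Dusp27 fell by 1.05 more on the early arrays (adjusted p = 2.68e-07). Dusp4 changed by 0.64 early and by -0.74 late, a difference of -1.38 ± 0.16 (SE). The early change of Dusp4 was 0.01 from Cy3 alone, 0.31 after bleaching correction and -0.10 in the authors' tables. Its opposite direction therefore depended on the processing, while the difference stayed between -1.66 and -0.68. Dusp12 (-0.71 early, 0.25 late) and Spry4 (-0.56 early, 0.23 late) had changes of opposite sign, with differences of 0.96 and 0.79, and Spred2 (0.60 early, -0.08 late) differed by -0.69. Dusp1 differed by -0.52 (adjusted p = 0.00688), under 1.5-fold. For Dusp6 the difference was 0.13 with an interval from -0.20 to 0.46, and for Spry2 0.31, from -0.03 to 0.65.

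**Figure D3:**
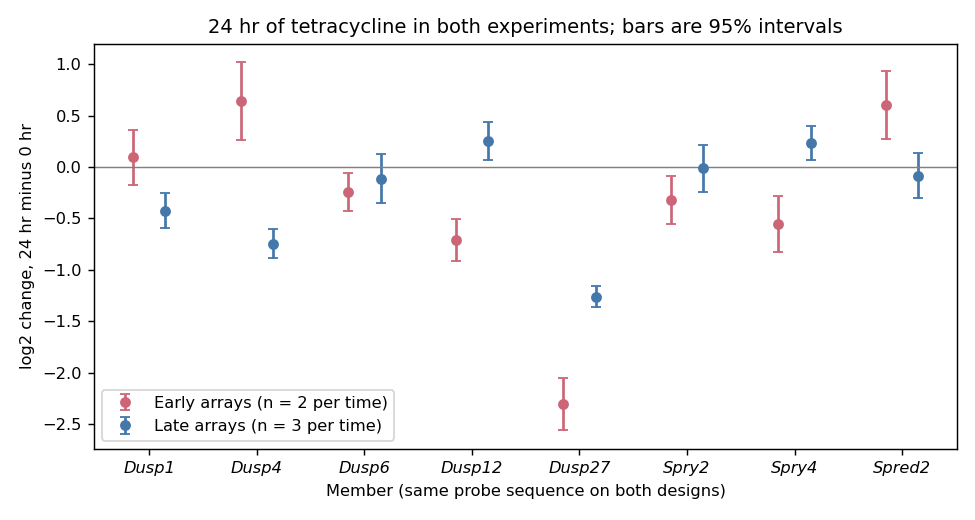
Log2 change from 0 to 24 hr of tetracycline (vertical axis) for the 8 genes with the same probe on both designs (horizontal axis), with early arrays in red (2 per time) and late arrays in blue (3 per time). Bars are 95% intervals from limma, and the intervals of the 2 experiments overlap only for Dusp6 and Spry2.

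The experiments differ in array design, in replicates and in when they were done, and these cannot be told apart from a difference between the cells. The difference of Dusp27 was called in 36 of 36 alternatives and that of Dusp4 in 35 of 35. Spred2 lost the call in 7 of 36, among them without early 0 hr replicate 2 (-0.57), early 24 hr replicate 2 (-0.48) or late 24 hr replicate 3 (-0.56), and the Spry4 difference lost it in 4 of 36.

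With RA, 3 phosphatase genes rose and Spry4 fell, and without LIF no member was called. With RA 4 of the 10 genes were called, where 11.1% of all genes were, 8.47% rising and 2.61% falling. The median change of the 10 was -0.08, against 0.01 for all genes. Without LIF limma called 0 of 10, where 2.23% of all genes were called, with 4 members at an unadjusted p under 0.05. Each line served as its own control, so there are 4 arrays per medium, and both comparisons share the arrays with LIF.

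Dusp4 read -0.64, -1.66, -0.27 and 1.21 with LIF in the episomal clone, the integrated clone, MG1.19 and ES 129.3, and 1.35, -0.79, 1.14 and 1.68 with RA. It was higher with RA in 4 of 4 lines, by 1.99, 0.87, 1.42 and 0.47. The mean change was 1.18 ± 0.24 (SE), a fold of 2.27 with an adjusted p of 0.0134, and it lost the call without MG1.19 (1.11, adjusted p = 0.113). Without LIF the change was 0.41 (adjusted p = 0.51), with 3 of the 4 lines higher.

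Dusp6 read -0.52, -0.32, -0.57 and -0.10 with LIF in the same order of lines, 0.69, -0.18, 0.42 and 0.78 with RA, and 0.00, 0.51, 0.71 and 0.50 without LIF. It was higher in all 4 lines in both media. With RA the change was 0.80 (SE 0.21, adjusted p = 0.034), and without LIF it was about as large, 0.81, but did not pass (adjusted p = 0.0997). The call with RA was lost without ES 129.3, MG1.19 or the episomal clone (adjusted p = 0.137, 0.158 and 0.0787). The second Dusp6 probe changed by 0.02 with RA (interval -0.10 to 0.14) and by -0.11 without LIF, so the 2 probes of Dusp6 disagreed in these lines.

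Dusp1 read -0.81, -0.37, -0.53 and -0.10 with LIF and 0.27, 0.07, 0.27 and 0.03 with RA. The smallest difference, 0.13, was in ES 129.3 and the largest, 1.08, in the episomal clone. On average it rose by 0.61 (SE 0.13, fold 1.53, adjusted p = 0.0151), and its second probe was higher by 0.30 (adjusted p = 0.0119), with 4 of 4 lines higher on both. The call was lost without MG1.19, the episomal clone or the integrated clone, at changes of 0.55, 0.45 and 0.67. Without LIF Dusp1 changed by 0.24 (adjusted p = 0.453).

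Spry4 fell with RA. It read 0.60, 1.06, 0.75 and 0.52 with LIF and 0.00, 0.08, -0.02 and -0.06 with RA, so that the 4 lines came to nearly the same ratio. The change was -0.73 (SE 0.11, fold 1.66, adjusted p = 0.00314), and without background correction it was -0.30 and not called. Without LIF Spry4 changed by -0.27 (adjusted p = 0.299), and only the integrated clone, which started highest, moved by more than 0.5 (1.06 to 0.36).

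**Figure D4:**
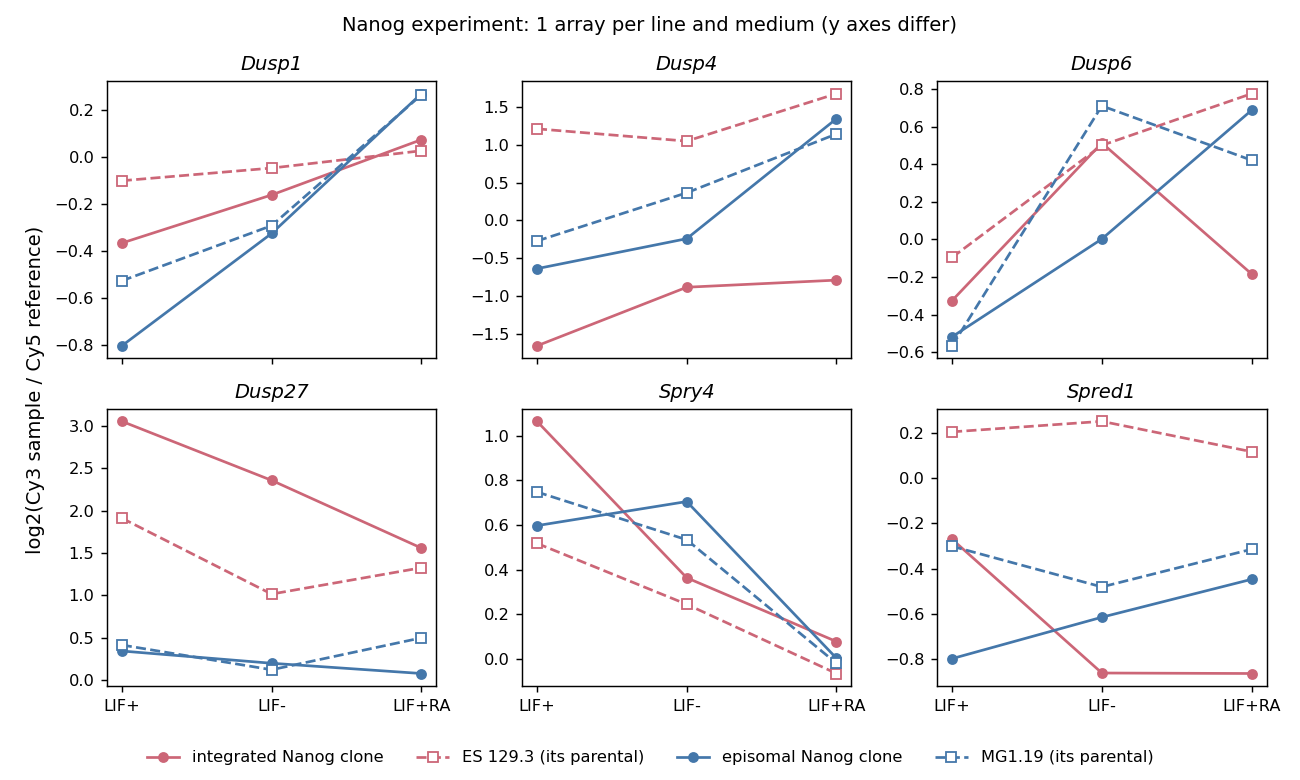
Log2 ratio of sample to reference (vertical axes, scaled separately) in 3 media (horizontal axis) for 6 genes, with 1 array per point. Red marks the 129SvEv-Tac lines and blue the 129Sv lines; solid lines are Nanog clones and dashed lines parental cells. Spry4 converges near 0 with RA, and Dusp4 in the integrated clone lies below ES 129.3 in every medium.

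The other Sprouty and Spred genes moved little with the medium. Changes with RA were -0.19 for Spry2, -0.00 for Spry1, -0.09 for Spred1 and -0.07 for Spred2, and without LIF 0.18, 0.18, -0.14 and 0.09, with adjusted p of 0.108 or more. Dusp12 changed by -0.14 and -0.13. Dusp27 changed by -0.57 with RA (adjusted p = 0.154) and -0.51 without LIF (adjusted p = 0.361). Each of the 129SvEv-Tac lines moved more than either 129Sv line in both media, but the 129Sv lines already had low ratios with LIF. Markers of other cells also moved with RA: 8 of 16 trophoblast, 7 of 14 endoderm and 4 of 10 fibroblast markers rose. Of 19 ES cell markers 8 fell, where 8.47% of all genes rose and 2.61% fell. What part the markers had in the members' changes was not tested.

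Against ES 129.3, matched to it by strain as its parental line, the integrated Nanog clone had less Dusp4 and Spred1. Here 1 clone was set against 1 line, so the p-values are about these lines and not about Nanog. Of the 10 genes 2 fell, where 8.14% of all genes were called and 5.44% fell. Dusp4 differed from ES 129.3 by -2.87 with LIF, -1.93 without LIF and -2.47 with RA, a mean of -2.43 ± 0.28 (SE), a fold of 5.37 with an adjusted p of 0.00315. Spred1, a RAS-RAF brake like Spred2, read -0.27, -0.86 and -0.86 in the clone and 0.20, 0.25 and 0.12 in ES 129.3, and it was lower in every medium, with a mean difference of -0.85 (SE 0.15, adjusted p = 0.0142). Without the arrays lacking LIF both calls were lost, at a change of -2.67 for Dusp4 (adjusted p = 0.0705) and -0.73 for Spred1 (0.225), and without the RA arrays that of Spred1 was lost too (-0.79, adjusted p = 0.0943).

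Dusp27 went the other way in this clone without passing. It read 3.06, 2.36 and 1.56 with LIF, without LIF and with RA, against 1.91, 1.02 and 1.33 in ES 129.3 (0.91, adjusted p = 0.0787), and without the RA arrays the difference was 1.24 (adjusted p = 0.0337). In both 129Sv lines Dusp27 was lower, from 0.08 to 0.50 on 6 arrays, than on any of the 6 arrays of the 129SvEv-Tac lines, which read from 1.02 to 3.06. Per the file headers the arrays of each strain were image-extracted on a day of their own, so strain and day cannot be told apart.

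In the episomal clone 0 of 10 genes and 0% of all genes were called, with 1 member at an unadjusted p under 0.05. Over the 6 pairs of clone and parental array 0 of 10 were called, where 0.00718% of all genes were, with 4 members at an unadjusted p under 0.05. A fit with line and medium called 1 of the 10, Dusp4 (-1.34, adjusted p = 0.0118), where it called 3.54% of all genes. Both fits take values of the same clone in different media as independent, so neither tests across clones. The difference between the clones' effects was called for 0 of 10, where 0.941% of all genes were, with 4 members at an unadjusted p under 0.05. For Dusp4 that difference was -2.17 (interval -3.08 to -1.25, adjusted p = 0.0642), so the effect in 1 clone was not shown to be absent from the other. Fibroblast markers moved with the integrated clone's contrast, and 5 of 10 fell. Their mean log2 ratio was -2.92, -2.93 and -2.57 in the clone and -1.90, -1.93 and -0.92 in ES 129.3. Of 16 trophoblast markers 3 fell, and of 19 ES cell markers 6 rose, where 5.44% of all genes fell and 2.70% rose. Whether these marker changes bear on Dusp4 and Spred1 was not tested.

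The rest of the pathway was followed with 4 lists of ERK genes by role. At 120 hr on the late arrays 30 of 75 list genes measured were called, 19 rising and 11 falling, where 29.3% of all genes were called, 16.8% rising and 12.5% falling. The lists were not tested as groups. Among the ligands and receptors, 4 of 19 rose and 1 fell: the receptors Egfr (1.53), Met (1.20) and Erbb3 (0.93) rose and Kit, the receptor of stem cell factor, fell by 1.86. Fgf4 itself was not called at any time, but its changes passed the test at every late time. They ran from -0.37 at 48 hr to -0.26 at 120 hr, with adjusted p of 0.0163 or less and no overlap with 0 hr. On the early arrays Fgf4 changed by -0.53 at 24 hr (adjusted p = 0.00554), also under 1.5-fold. Of the adaptors, RAS, RAF, MEK and ERK genes, 5 of 20 rose and none fell, led by Ptpn11 (1.04), the phosphatase that carries receptor signals to RAS, Nras (0.93) and Rras2 (0.90).

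The transcriptional targets of ERK held called genes in both directions. Of 20 measured, 8 fell and 3 rose at 120 hr, where the immediate-early gene Ier2 fell by 3.99, the ETS factor Etv5 fell by 3.96 and the survival gene Mcl1 fell by 1.58, with rises of 2.12 for Jun, 1.47 for Myc and 1.36 for Phlda1. Etv5 read 2.79, 2.45 and 2.62 at 0 hr, 1.77, 1.58 and 1.74 at 24 hr, then -0.06, 0.03 and 0.03 at 48 hr. Etv4 read 0.46, 0.38 and 0.57 at 0 hr, 0.89, 0.64 and 0.62 at 24 hr, then -0.32, -0.25 and -0.27 at 48 hr, so it was higher at 24 hr by 0.25 (adjusted p = 0.0114, under 1.5-fold) and its change from 0 hr was -0.75 at 48 hr. Egr1, an immediate-early factor, read -2.15 and -2.24 on 2 arrays at 0 hr, with the spot of the other array left out as an outlier, and -6.59, -7.05 and -6.49 at 24 hr. On the early arrays Egr1 lay between -6.49 and -6.10 at every time, 0 hr included, and did not change by more than 0.18. Every late change shares the 0 hr arrays, on 2 of which Egr1 stood above every early array. At 24 hr 8 of 20 targets fell on the late arrays: Egr1, Etv5, Fos, Ier2, Ier3, Junb, Klf4 and Mcl1. Only 1 (Jun) rose, where 4.88% of all genes fell and 6.07% rose. On the early arrays 4 of 21 fell at 24 hr (Etv1, Ier2, Klf4 and Myc) and 2 rose. There 4.16% of all genes fell and 9.19% rose by the log2 ratios, a split that changed with the processing, and Myc also fell at 12 hr.

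Of 16 other brakes measured at 120 hr, 7 rose, 2 fell and 7 were not called, where 16.8% of all genes rose and 12.5% fell. Dusp8 (3.35), a phosphatase of JNK and p38, Errfi1 (2.15), which inhibits EGF receptors, and Dusp3 (1.82) rose most, and Lrig3 fell by 1.84 and Pebp1, a RAF inhibitor, fell by 0.88. Dusp9, an ERK phosphatase of the same family as Dusp6, read 1.56 and 1.57 on 2 arrays at 0 hr, with the other left out, and 3.02, 3.04 and 2.94 at 24 hr, a rise of 1.44 that reached 1.97 at 120 hr. On the early arrays Dusp9 read 1.63 and 1.65 at 0 hr, 2.39 and 2.37 at 12 hr, then 2.75 and 3.06 at 24 hr, rises of 0.74 and 1.27. The 2 close relatives therefore went in opposite directions on the late arrays, Dusp9 up from 24 hr and Dusp6 down from 48 hr.

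With RA 7 of 17 other brakes rose, none fell and 10 were not called, where 8.47% of all genes rose and 2.61% fell. Dusp5, a nuclear ERK phosphatase not on the late arrays, read -1.65, -2.08, -0.80 and -0.20 with LIF and 1.87, 0.42, 2.02 and 1.55 with RA in the episomal clone, the integrated clone, MG1.19 and ES 129.3. That was a rise of 2.65 (SE 0.28, adjusted p = 0.000685). Dusp9 rose by 1.06, Etv5 fell by 1.91 and Etv4 fell by 0.93, the last 2 in the direction of Spry4. Of 21 ERK targets 6 rose and 5 fell with RA, against the same shares of all genes. Without LIF, Fgf5, the FGF ligand of primed cells, rose by 2.68 (adjusted p = 0.0136), and on the early arrays it rose by 0.88 at 12 hr alone.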

How the data were processed

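The data are 40 two-colour Agilent arrays, with sample RNA in Cy3 and a reference pool in Cy5, without dye swaps. The authors deposited spot intensity files made with Feature Extraction 7.5 per the file headers, with mean, background and processed signals. The authors also deposited value tables in log10 units, normalized and corrected for Cy5 bleaching. A deposited column of these values is handled as a score, because the authors left 10 cells of the table with a code for missing values. Their scale was read from the values (medians 2.91 to 2.99, correlation with Cy3 signals 0.904 to 0.970), and they serve as an alternative. From the deposited intensities, log2 ratios of Cy3 over Cy5 were computed in limma 3.58.1 (R 4.3.3): outlier-flagged spots were set missing, normexp background correction (offset 50) was applied, arrays were normalized by loess with control spots at weight 0, and spots of a probe were averaged. Each gene is given by its brightest probe. Changes were tested two-sided with lmFit and eBayes per experiment, with Benjamini-Hochberg adjustment over all gene probes. The Nanog model held line and medium, and "both clones" tested the 6 pairs of clone and parental array.

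Members were found by symbol through probe accessions and probes identical on another design. The members, lists and tests were chosen with earlier results of these data known. Besides the members, the text names up to 3 genes with the largest rise and fall of each ERK list at 120 hr, a fixed set (Fgf4, Fgf5, Fgfr2, Etv4, Etv5, Egr1, Dusp9 and Dusp5), checks of the treatments, and the 3 genes most like a member. Replicate numbers were checked for pairing: residuals of same-numbered arrays had a mean correlation of 0.114 (early) and 0.151 (late), with 12 of 20 and 28 of 45 pairs over 0.1. Late pairs ran from -0.430 to 0.748, so the check does not exclude that same-numbered arrays belong together. The main fits use no pairs because the study's methods name none, and counts with the number as a block are given below. The protocol text of the late arrays describes another construct, and labels and methods give different names to the integrated clone's parental cells, so clones and parents were matched by strain. The parental arrays were deposited before with another study. Probes were not placed on a genome here. Tests were tried on simulated data first.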

Additional observations from a re-analysis of the deposited data

Results flagged for a closer look

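In the episomal clone, Spred2 changed by 0.34 with RA, while the other 3 lines lay between -0.25 and -0.16, a gap of 0.850 of the range over the 4 lines. Spry2 changed by 0.45 without LIF in the same clone, against 0.07 to 0.11 in the other lines, a gap of 0.891 of the range. Each value comes from 1 array per line and medium. Of 30 such sets of values examined, 2 stood out, and chance marks about 1 in 20.

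The change at 24 hr of Tet differed between the late and early arrays by the test of the difference itself for Dusp1 (-0.52), Dusp12 (0.96), Dusp27 (1.05), Dusp4 (-1.38), Spred2 (-0.69) and Spry4 (0.79), late minus early. The array design and the experiment differ with it, and they cannot be told apart.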

How the results depend on the processing

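Of the member and pathway counts, 147 values under alternatives other than leaving out arrays were within 1.5 times the reported count and 26 were not. At a 2-fold threshold the counts were 0 and 1 at early 12 and 24 hr, 1, 2, 3 and 3 at late 24, 48, 72 and 96 hr, 1 with RA, 1 in the integrated clone, 2 between early and late arrays, and 19 ERK list genes. Without background correction they were 1 at early 24 hr, 1 at late 24 hr, 3 at 48 hr, 1 with RA, 1 in the integrated clone and 3 between early and late arrays. From Cy3 alone 2 members were called at early 12 hr, 2 at early 24 hr and 1 between the clones (Dusp4, -2.33). The bleaching correction left 2 at early 24 hr and the t test with the methods' variance floor 0 at early 12 and 24 hr. The authors' value tables gave 1 at late 24 hr and 3 between early and late arrays, the mean over probes 2 with RA, and the fit with line and medium 1 for both clones. Leaving out arrays gave 0 to 1 at early 12 hr, 2 to 5 at early 24 hr, 0 to 2 in the integrated clone and 1 to 3 with RA. The calls of Dusp27 and Dusp6 on the late arrays held in 29 of 29 settings.

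Direction reversed for Dusp4 at early 24 hr in the authors' tables (-0.10), and for Spry2 from Cy3 alone at early 24 hr (0.79) and between late and early arrays (-1.05); the cause was not tested. With the replicate number as a block the counts were 0, 0, 1 and 4 on the early and 2, 5, 6, 6 and 6 on the late arrays, with 30 ERK list genes, and no count changed. The Nanog groups have 1 array each and no replicate numbers to block on, so their arrays were paired by line or by medium in the fits reported. An extraction day as a block was not run, since each time course had 1 day and the line term holds it in the Nanog fit. The t test with the methods' variance floor, the block and the mean over probes were not run between early and late arrays.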
